A study of Mus musculus with 2 samples.

Results

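Columnar epithelial cells of the mouse uterus were followed in 2 droplet libraries, 115 cells from mice given doxorubicin with anti-Müllerian hormone and 283 from mice given doxorubicin alone. They were 398 of 14848 barcodes that passed the cell filter. A barcode was taken as a columnar cell when it held at least 2 UMIs (unique molecular identifiers, one per captured transcript) each of Epcam and Wfdc2. It also had to hold at most 5 UMIs of the squamous keratins Krt5 and Krt14 together, at most 1 of the endothelial genes Pecam1 and Cdh5 together and at most 1 of the leukocyte gene Ptprc. Cells with 3 or more of the 5 gland genes 9030622O22Rik, BC048679, Gkn3, Cxcl15 and Wfdc15b were set aside as gland-like. The cells were thus chosen by measured UMIs of these genes, and their levels of the choosing genes are a description.

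The DOX plus AMH group received doxorubicin at 3 mg/kg together with anti-Müllerian hormone (AMH) at 0.75 mg/kg, and the DOX group received doxorubicin at 3 mg/kg. Both libraries are labelled 4 h. In each group 1 uterus from each of 5 animals went into a single pool and a single 10x Genomics library. The pools were digested with papain and collagenase, and 10000 cells of each were collected for 3′ sequencing (v3.1 chemistry). The series text gives 2 weekly doses and postnatal day 25 for its bulk sequencing animals only, and the schedule of the animals used here is not stated. Strain and oestrous state are not given in the sources used here, and no untreated library was analysed. With 1 library per group no difference could be tested, and pool, handling and treatment cannot be told apart.

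The columnar epithelium lines the uterine lumen and seals it with tight junctions, moves ions and water, and secretes antimicrobial proteins into the lumen. In rodents many of its secreted proteins are under control of oestrogen and progesterone, acting through Esr1 and Pgr in the epithelium and in the stroma beneath. Doxorubicin is an anthracycline that poisons topoisomerase II and breaks DNA, and AMH is a TGF-beta family hormone that signals through its receptor Amhr2 and BMP-type SMAD proteins.

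Columnar cells were deep. The 115 cells of DOX plus AMH held 4985957 UMIs with a median of 27509 per cell, and the 283 cells of DOX held 12576077 with a median of 29614. Median mitochondrial shares were 7.68% in DOX plus AMH and 8.23% in DOX. Levels are counts per 1e6 UMIs (CPM), from UMIs summed over the cells of a library and divided by all their UMIs. Log2 ratios set the CPM of DOX plus AMH over that of DOX. Their 95% intervals, like those of every share, cover counting error only and leave out the spread between cells and between pools. The libraries shared 17 barcode sequences, 0 of them of columnar cells.

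Columnar cells were a smaller share of the DOX plus AMH library, 1.63% of 7065 barcodes (1.346 to 1.951), than of the DOX library, 3.64% of 7783 (3.23 to 4.08). The gland-like cells beside them were 16 (0.226%) in DOX plus AMH and 36 (0.463%) in DOX. Squamous barcodes, with Epcam and more than 5 UMIs of Krt5 and Krt14, were 470 (6.65%) in DOX plus AMH and 8 (0.103%) in DOX. Without the squamous barcodes in the total, columnar cells were 1.74% in DOX plus AMH and 3.64% in DOX. How the tissue was cut and dissociated can set such shares, and its part was not tested. Just inside the Epcam threshold, at exactly 2 UMIs, lay 5 cells of DOX plus AMH and 6 of DOX, with median depths of 9795 and 8680.5 UMIs for DOX plus AMH and DOX. Just outside, with 1 Epcam UMI, lay 7 barcodes of DOX plus AMH and 19 of DOX, with median depths of 1528 UMIs in DOX plus AMH and 6283 in DOX.

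The 13 markers of columnar epithelium include Epcam and Wfdc2, whose levels the choice of cells fixed. The other 11, which had no part in it, summed to 4717 CPM in DOX plus AMH and 4890 CPM in DOX, against 64.2 and 51.6 CPM in the barcodes of DOX plus AMH and DOX with no Epcam UMI. Of these 11 markers, 10 were seen in at least 50% of the cells of both libraries. Fxyd4, a regulator of the sodium pump, was at 1046 CPM in DOX plus AMH and 768 CPM in DOX (log2 ratio 0.45, 0.40 to 0.50). S100g, a vitamin D-dependent calcium-binding protein, was at 551 CPM in DOX plus AMH and 822 CPM in DOX (-0.58, -0.64 to -0.52). Car2, a carbonic anhydrase, was at 517 CPM in DOX plus AMH and 716 CPM in DOX (-0.47, -0.53 to -0.41). Median levels per cell followed the sums, with S100g at 266 CPM in DOX plus AMH and 574 CPM in DOX.

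Beyond the markers, the genes most enriched over all other barcodes in both libraries included Sftpd, Wnt7a, Erbb4, Prap1, Atp2b2 and the long noncoding RNAs Mannr and 9530059O14Rik. Sftpd encodes the antimicrobial lectin surfactant protein D, Wnt7a a Wnt ligand of the luminal epithelium needed for gland formation in mice, and Erbb4 a receptor for EGF-family ligands. Sftpd was 4.91 log2 units above other barcodes in DOX plus AMH and 4.75 in DOX, and Prap1 5.12 in DOX plus AMH and 4.22 in DOX. The locus of 9530059O14Rik lies at chr9:122572501-122580647 in GRCm38.p6, the RefSeq mouse build used for all positions here. Mannr lies at chr3:29891017-29924191, and its interval overlaps that of Gm33206 at chr3:29764505-29893227, so that UMIs of this pair may be shared between them. All of these genes were above the barcodes with no Epcam UMI in both libraries.

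**Figure D1:**
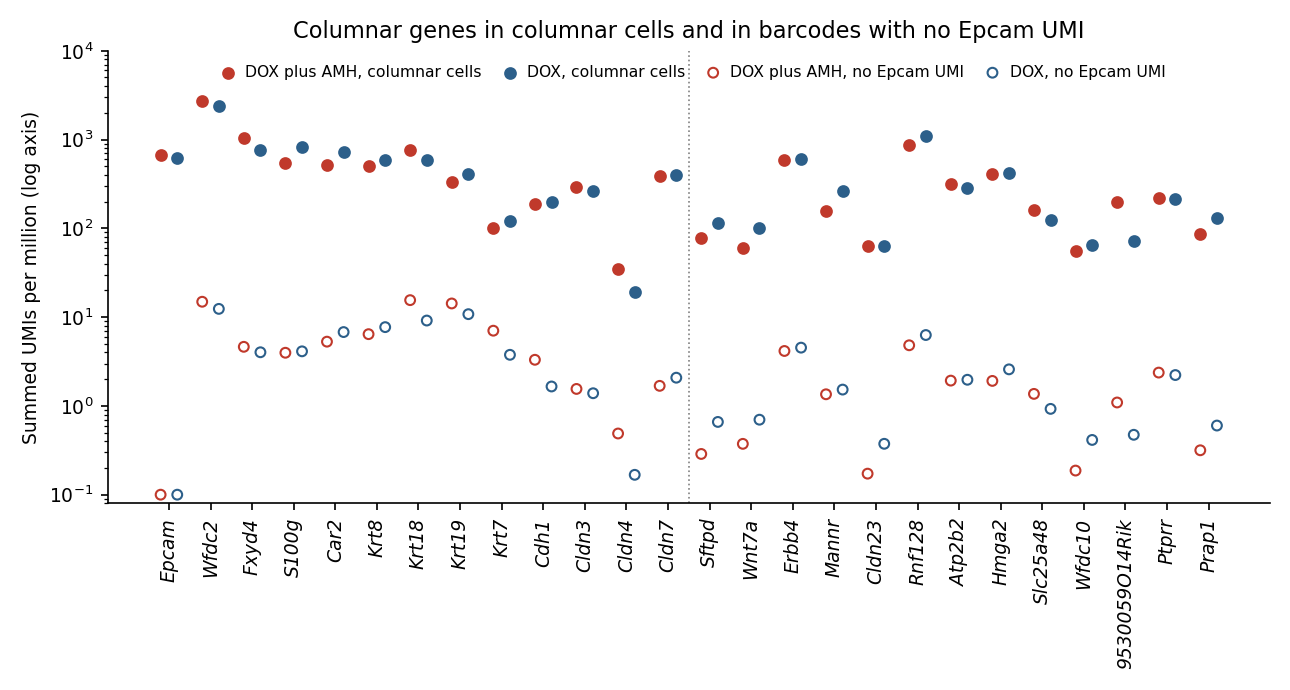
Summed level of 26 genes in columnar cells (filled) and in barcodes with no Epcam UMI (open) of DOX plus AMH (red, left of each pair) and DOX (blue), in CPM on a log axis. Left of the dotted line are the 13 columnar markers, right of it other genes most enriched in columnar cells; Epcam is 0 by construction in the open points and is drawn at 0.1. The filled points lie far above the open ones for every gene shown.

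RNA of other cell types was present at low levels and differed between the libraries. The 8 stromal markers summed to 384 CPM in columnar cells of DOX plus AMH and 1496 CPM in those of DOX, against 11608 and 17258 CPM in the barcodes of DOX plus AMH and DOX with no Epcam UMI. No stromal marker was at 0. A set of 6 stromal genes made up at least 0.1% of UMIs in 8 columnar cells of DOX plus AMH (6.96%) and in 55 of DOX (19.4%). Scrublet, which scores barcodes by their likeness to simulated doublets, called 3 of the 115 cells of DOX plus AMH and 38 of the 283 of DOX. The 11 squamous markers summed to 263 CPM in columnar cells of DOX plus AMH and 15.7 CPM in those of DOX. Krt5 was seen in 33.9% of columnar cells of DOX plus AMH and 1.06% of those of DOX. At 10000 UMIs per cell it was seen in 10.5% of columnar cells and in 14.4% of barcodes with no Epcam UMI of DOX plus AMH. The choice of cells limited Krt5 in the columnar cells alone, so these shares are not compared. The thinned share was 0 in columnar cells of DOX. The 9 myeloid markers summed to 30.7 CPM in DOX plus AMH and 36.9 CPM in DOX. The 6 smooth muscle markers summed to 214 CPM in DOX plus AMH and 285 CPM in DOX, and the 4 erythroid markers to 34.5 CPM in DOX plus AMH and 6.20 CPM in DOX.

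Within the DOX plus AMH library 3 kinds of cell stood apart from the rest of the columnar cells. They were set apart after their values had been seen, and none of their kind was counted among the 283 cells of DOX, which allows a share of up to 1.295% by the exact binomial interval. The squamous barcodes also were nearly all in DOX plus AMH (470, against 8 in DOX). How much oviduct, cervix or vagina went into each pool is not given in the sources used here, and with 1 pool per group it cannot be told apart from treatment. The first kind was 7 ciliated cells (6.09% of 115, 2.48 to 12.1), with at least 3 of the 6 cilia genes Ccdc153, Tmem212, Dynlrb2, Sntn, Foxj1 and Fam183b. Their summed levels were 1528 CPM for Tmem212, 1036 CPM for Ccdc153 and 455 CPM for Foxj1, the master regulator of motile cilia. As genes that chose the cells, these are a description. The ciliated cells also held 1403 CPM of Ovgp1, the oviduct-specific glycoprotein, and 110 CPM of Wfdc2. The second kind was 12 mucous cells (10.4%, 5.51 to 17.5), with at least 3 of Tff1, Muc5b, Olfm4, Wfdc18 and Agr2.

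Tff1, Olfm4, Muc5b and Agr2 were among the 5 genes that chose the mucous cells, so their levels there are a description. Tff1, a trefoil peptide that is secreted with mucus, reached 12322 CPM in the mucous cells, Olfm4 8622 CPM and the gel-forming mucin Muc5b 4936 CPM. Agr2, an endoplasmic reticulum protein needed for mucin production, reached 4102 CPM, and Krt13, a keratin of stratified epithelia, 1944 CPM. Krt13 made up 123 CPM of the 263 CPM of squamous markers in DOX plus AMH, and 599 of its UMIs lay in the mucous cells. Without the 3 kinds of cell set apart, that sum was 44.6 CPM in DOX plus AMH. Ltf, which encodes the iron-binding antimicrobial protein lactoferrin, was at 3287 CPM in the mucous cells. Tgfbi, at 761 CPM in the remaining cells of DOX plus AMH, had 0 UMIs in the mucous cells, and S100g was at 29.2 CPM. The third kind was 6 cells with at least 10 UMIs of Ovgp1 that were neither ciliated nor mucous (5.22%, 1.94 to 11.01). These held columnar markers at mixed levels. Fxyd4, at 2055 CPM, and S100g, at 1089 CPM, were above the 1123 and 603 CPM of the remaining cells of DOX plus AMH. Epcam, at 474 CPM, and Car2, at 266 CPM, were below the 632 and 625 CPM there, and Tgfbi was at 89.8 CPM. The Ovgp1-rich cells also held 1142 CPM of the calcium-binding protein gene Calb1.

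**Figure D2:**
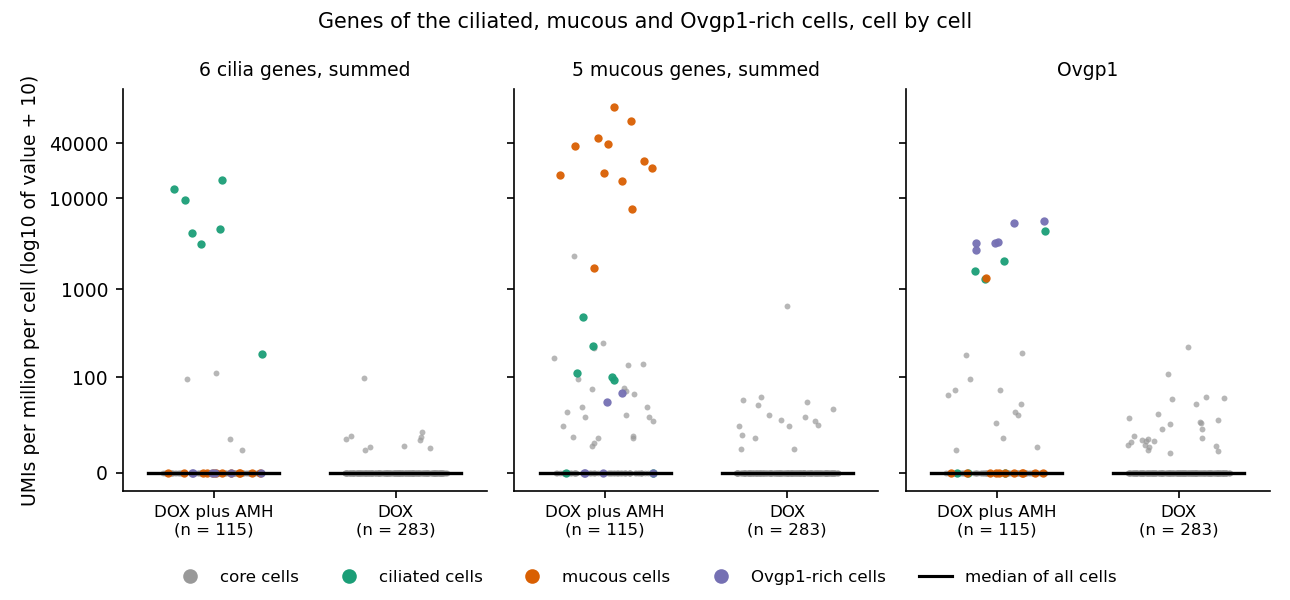
CPM in each columnar cell for the 6 cilia genes, the 5 mucous genes and Ovgp1, DOX plus AMH left and DOX right, on an axis of log10 of the value plus 10. Points are cells, coloured by kind, and bars are medians over all cells of a library. High values are held by the 7 ciliated, 12 mucous and 6 Ovgp1-rich cells of DOX plus AMH, which were chosen by these same genes. For the mucous genes 1 core cell holds a high value as well, and no cell of DOX reaches those levels of cilia genes or Ovgp1.

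The 90 cells of DOX plus AMH left after these 25 are called core cells and were set against all 283 cells of DOX, which had none to leave out. Their median depth was 25141 UMIs. Over all columnar cells, 75 of 3607 genes with at least 50 UMIs and 50 CPM were at least 2-fold higher in DOX plus AMH (2.08%) and 51 were at least 2-fold lower (1.41%). In core cells 29 of 3519 genes were 2-fold higher (0.824%) and 60 were 2-fold lower (1.71%). Of the 75 higher genes 27 were still 2-fold higher in core cells, and of the 51 lower genes 48 were still 2-fold lower. In the strict core, of core cells with stromal genes under 0.1% of UMIs and no doublet call (83 cells of DOX plus AMH and 226 of DOX), 28 of the 75 and 27 of the 51 were still 2-fold higher and lower. Of the 51 lower genes, 26 had less than 0.5 times the level of the barcodes with no Epcam UMI in the library where they were higher, and the part of RNA from other cells was not tested. The strict core gave 36 higher (1.02%) and 37 lower genes (1.05%) in all. Its smooth muscle markers summed to 245 CPM in DOX plus AMH and 64.7 CPM in DOX.

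The 12 genes with the highest ratios over all columnar cells had nearly all their UMIs in few cells. Each had at least 96.0% of its DOX plus AMH UMIs in the 10 cells richest in it. Tff1 had 3806 UMIs in DOX plus AMH and 0 in DOX, so its log2 ratio, taken against a floor of 3 counts per library, was at least 11.64. Olfm4 had 2667 UMIs in DOX plus AMH and 0 in DOX (at least 11.13), and Muc5b 1526 in DOX plus AMH and 0 in DOX (at least 10.33). Wfdc18 had 2834 UMIs in DOX plus AMH and 3 in DOX (11.22, 9.67 to 13.50). Ovgp1 had 1761 UMIs in DOX plus AMH and 33 in DOX (7.07, 6.58 to 7.62). The axonemal dynein gene Dnah5 had 509 UMIs in DOX plus AMH and 4 in DOX (8.33, 6.96 to 10.21). The 16 measured genes of the oviduct and cilia list had a median log2 ratio of 7.18, with 15 at least 1.3-fold higher and 0 lower. In core cells 7 were measured, with a median of 0.41. Over all columnar cells 23.6% of 14337 genes were 1.3-fold higher and 13.2% were 1.3-fold lower, and the median gene was at 0.05.

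**Figure D3:**
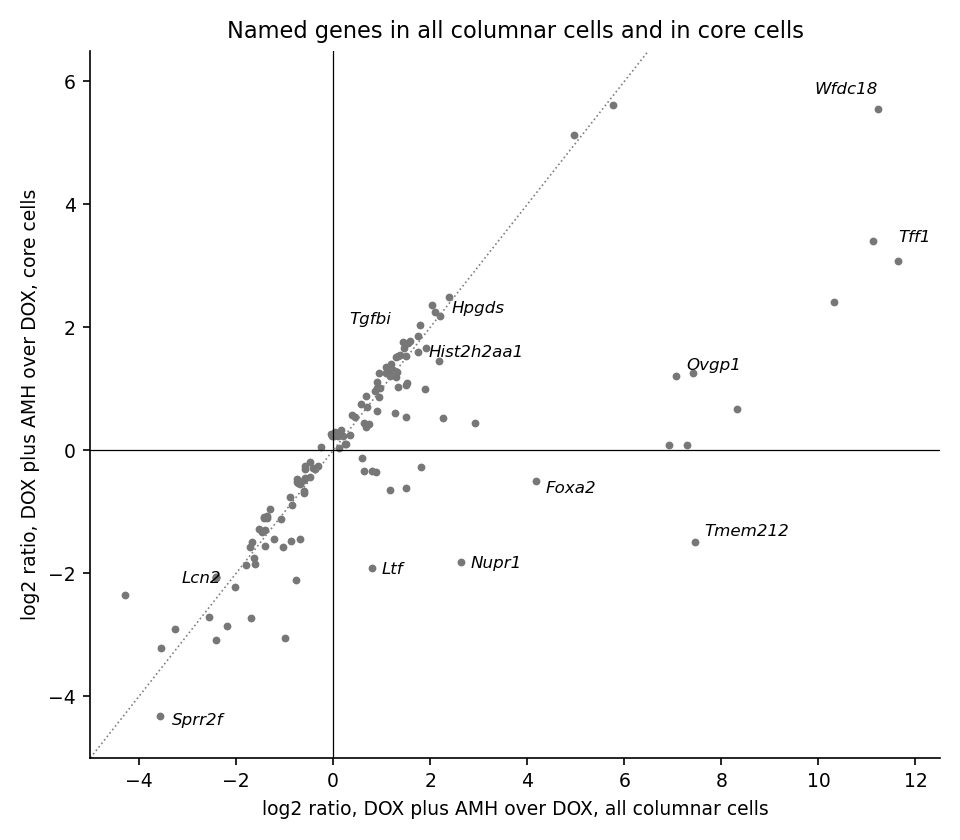
Log2 ratio, DOX plus AMH over DOX, of the named genes over all columnar cells (horizontal) and in core cells (vertical), with the dotted line marking equal values and genes at 0 in DOX set at the floor of 3 UMIs. Genes of the set-apart cells lie far right of the line, Ltf and Nupr1 change sign, the core values of Tmem212 and Foxa2 rest on 1 and 2 UMIs of DOX plus AMH, and genes such as Sprr2f, Lcn2, Tgfbi and Hpgds stay near the line.

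Sprr2f and Lcn2, both of the steroid-regulated list, came first among the 12 lowest genes over all columnar cells. Sprr2f, a small proline-rich protein that oestrogen induces in the mouse uterine epithelium, had 51 UMIs in DOX plus AMH and 1530 in DOX, or 10.2 CPM in DOX plus AMH and 122 CPM in DOX. Its log2 ratio was -3.57 (-4.00 to -3.17), and -4.32 in core cells. Median cells of both libraries held no Sprr2f UMI, and the highest cell had 824 CPM in DOX plus AMH and 6813 CPM in DOX. At 10000 UMIs per cell Sprr2f was seen in 4.76% of cells in DOX plus AMH (1.56 to 10.8) and 20.7% in DOX (16 to 25.98). In barcodes with no Epcam UMI it was seen in 0.572% in DOX plus AMH and 0.457% in DOX. Shares at this depth cover only cells with at least 10000 UMIs. These were 105 of 115 columnar cells of DOX plus AMH and 271 of 283 of DOX, with median depths before thinning of 31115 UMIs in DOX plus AMH and 30555 in DOX. Among barcodes with no Epcam UMI they were 2972 of DOX plus AMH, with 3283 shallower ones left out, and 5253 of DOX, with 1779 left out. Their median depths were 13704.5 UMIs in DOX plus AMH and 15474 in DOX. Sprr2f belongs to a family of near-identical genes, among which UMIs may be split.

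Lcn2, a siderophore-binding antimicrobial protein, was lower in the median cell of DOX plus AMH than in that of DOX. Its level was 91.7 CPM in DOX plus AMH and 372 CPM in DOX, a log2 ratio of -2.02 (-2.16 to -1.88), and the median cell held 29.0 CPM in DOX plus AMH and 282 CPM in DOX. The cells overlapped, with quartiles of 0 and 111 CPM in DOX plus AMH and 108 and 537 CPM in DOX. At 10000 UMIs per cell Lcn2 was seen in 40.0% of cells of DOX plus AMH (30.6 to 50.02) and 79.3% of DOX (74.0 to 84.0), and in 2.12% and 2.63% of barcodes of DOX plus AMH and DOX with no Epcam UMI. Core cells gave -2.21 and strict core cells -2.32. Complement C3, another oestrogen-induced secreted protein, was at 312 CPM in DOX plus AMH and 708 CPM in DOX (-1.18, -1.261 to -1.105). Its median cell held 147 CPM in DOX plus AMH and 532 CPM in DOX. The highest C3 level was in 1 cell of DOX plus AMH, at 13289 CPM. At 10000 UMIs C3 was seen in 64.8% of cells of DOX plus AMH and 93.7% of DOX, but also in 29.7% and 18.2% of barcodes of DOX plus AMH and DOX with no Epcam UMI.

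Ltf ran in opposite directions in all cells and in core cells. Its level was 307 CPM in DOX plus AMH and 176 CPM in DOX over all columnar cells (0.80, 0.71 to 0.90). The richest 10% of cells held 86.7% of the Ltf UMIs of DOX plus AMH (12 cells) and 55.5% of those of DOX (28 cells). In core cells Ltf was at 46.9 CPM in DOX plus AMH and 176 CPM in DOX, a log2 ratio of -1.91 (-2.13 to -1.69). Over all columnar cells the median cell held 24.4 CPM of Ltf in DOX plus AMH and 64.1 CPM in DOX. The median core cell of DOX plus AMH held 0 CPM. Foxa2, the transcription factor of uterine glands, was at 13.04 CPM in DOX plus AMH and 0.716 CPM in DOX over all cells. In core cells it had 2 UMIs in DOX plus AMH and 9 in DOX, and its log2 ratio of -0.50 had an interval of -3.75 to 1.77, so that no direction could be read.

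**Figure D4:**
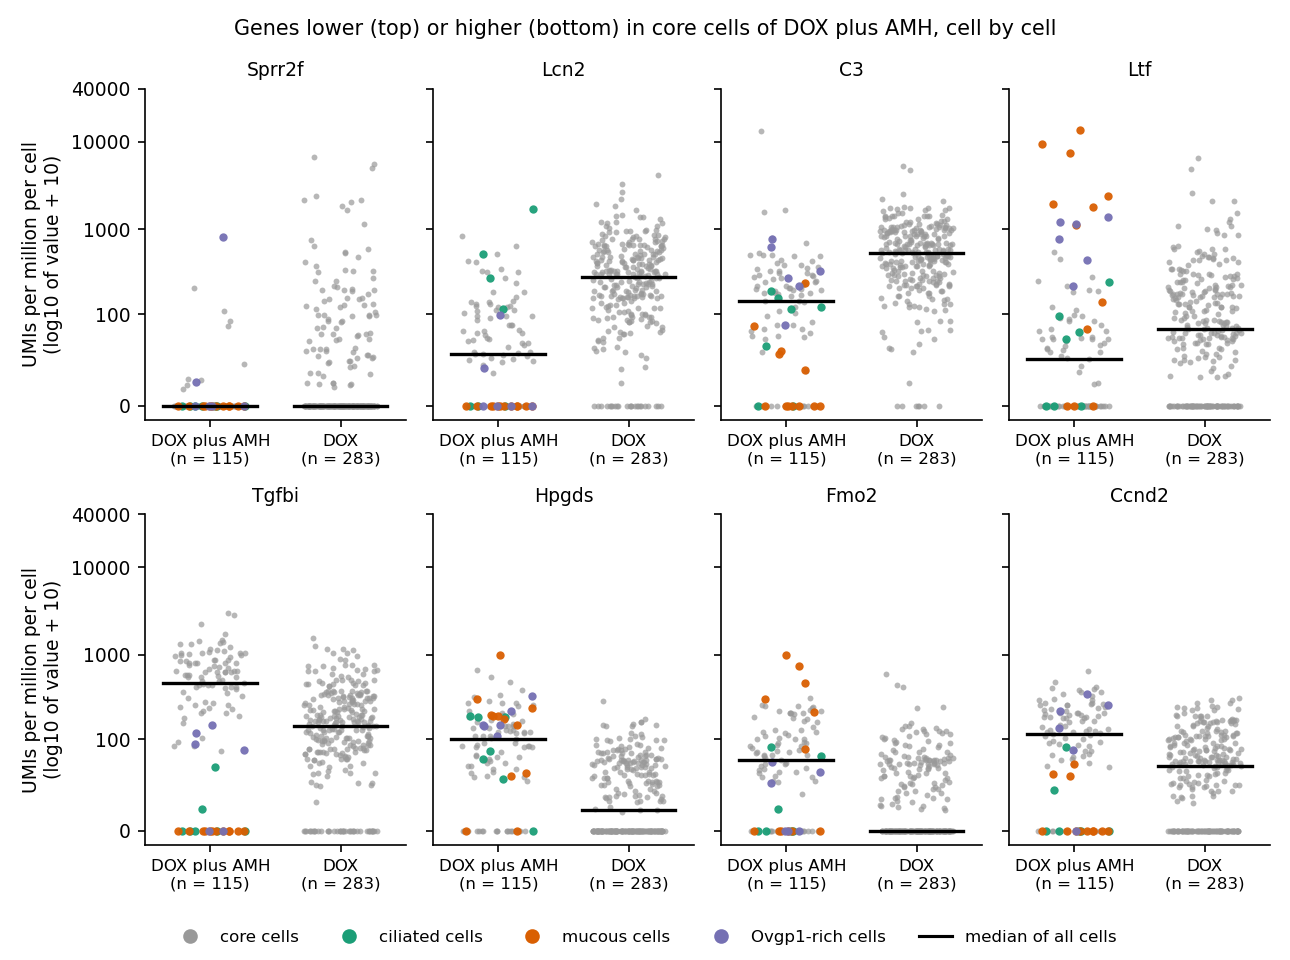
CPM in each columnar cell for Sprr2f, Lcn2, C3 and Ltf (top row) and for Tgfbi, Hpgds, Fmo2 and Ccnd2 (bottom row), DOX plus AMH left and DOX right, on an axis of log10 of the value plus 10. Bars are medians over all cells; for Lcn2 they are 29.0 in DOX plus AMH and 282 in DOX, for Tgfbi 471 in DOX plus AMH and 148 in DOX, and the highest Ltf values of DOX plus AMH are in mucous cells.

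The promoters of these 4 genes are shown because the genes are textbook products of the hormone-driven uterine epithelium and were lower together in core cells. They run 5′ to 3′ along each gene's strand from 250 bases before to 50 after the start, from RefSeq on GRCm38.p6, and 4 of 4 genes matched. Capitals mark the half-site GGTCA of the oestrogen response element and the letters TATAAA of a TATA box, each searched on both strands. The regions are chr3:92364937-92365236 (plus strand) for Sprr2f, chr2:32387690-32387989 (minus) for Lcn2, chr9:111019042-111019341 (plus) for Ltf and chr17:57228087-57228386 (minus) for C3.
Sprr2f: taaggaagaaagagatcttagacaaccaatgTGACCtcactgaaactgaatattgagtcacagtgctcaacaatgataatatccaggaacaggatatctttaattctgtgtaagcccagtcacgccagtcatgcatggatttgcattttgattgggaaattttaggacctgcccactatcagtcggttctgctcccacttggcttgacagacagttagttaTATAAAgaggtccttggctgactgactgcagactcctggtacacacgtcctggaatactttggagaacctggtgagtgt
Lcn2: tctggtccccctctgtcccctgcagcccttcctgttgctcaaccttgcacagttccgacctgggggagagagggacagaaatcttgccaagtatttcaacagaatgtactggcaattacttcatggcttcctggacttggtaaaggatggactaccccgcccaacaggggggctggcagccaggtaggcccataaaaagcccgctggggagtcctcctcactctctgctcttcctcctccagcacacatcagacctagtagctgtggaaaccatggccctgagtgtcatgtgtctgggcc
Ltf: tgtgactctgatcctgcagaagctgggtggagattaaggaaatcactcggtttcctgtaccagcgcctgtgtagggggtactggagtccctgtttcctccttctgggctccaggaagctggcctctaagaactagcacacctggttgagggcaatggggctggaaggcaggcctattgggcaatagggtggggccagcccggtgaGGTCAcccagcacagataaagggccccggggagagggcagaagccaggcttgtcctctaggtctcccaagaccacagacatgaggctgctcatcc
C3: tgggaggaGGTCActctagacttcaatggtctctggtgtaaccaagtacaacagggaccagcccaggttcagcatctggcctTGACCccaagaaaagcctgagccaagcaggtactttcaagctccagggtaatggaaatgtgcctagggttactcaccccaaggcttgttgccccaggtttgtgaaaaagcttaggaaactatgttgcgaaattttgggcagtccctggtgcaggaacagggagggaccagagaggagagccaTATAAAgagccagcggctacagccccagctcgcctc
The half-site had 1 match in Sprr2f, 0 in Lcn2, 1 in Ltf and 2 in C3, and it was present in 40.5% of 32851 promoters of the same length. TATAAA had 1 match in Sprr2f, 0 in Lcn2, 0 in Ltf and 1 in C3, and was present in 13.6% of all. It begins at position -29 from the annotated start in Sprr2f and at position 14 in C3, after the start. The full palindromic element, which contains the half-site, had 0 matches in the 4 promoters and was present in 0.0700% of all. An NF-kB site had 0 matches in the 4 and was present in 0.411%. Of 27 promoter entries for 23 of the 25 steroid-regulated list genes, 48.1% held the half-site.

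Over the whole list of steroid-regulated epithelial genes, 23 were measured, with a median log2 ratio of -0.26. Of these 6 were at least 1.3-fold higher and 9 lower, against 23.6% and 13.2% of all genes. In core cells 4 were higher and 11 lower of 21, with a median of -0.45, where 15.3% of 13787 genes were higher and 17.9% lower. Wfdc2, used to choose the columnar cells, is on this list and in its medians. At 0.20 over all columnar cells and 0.23 in core cells, it was counted as neither higher nor lower. The receptors themselves differed little, with Esr1 at 1322 CPM in DOX plus AMH and 1217 CPM in DOX (0.12) and Pgr at 330 CPM in DOX plus AMH and 395 CPM in DOX (-0.26). Greb1, a direct target of the oestrogen receptor, was at 60.4 CPM in DOX plus AMH and 84.7 CPM in DOX (-0.49, -0.68 to -0.30). The mucin Muc1 was at 53.6 CPM in DOX plus AMH and 81.1 CPM in DOX (-0.60). Areg, an EGF-receptor ligand induced by progesterone, had 51 UMIs in DOX plus AMH and 2 in DOX (6.01, 4.08 to 9.09), all from 5 cells of DOX plus AMH. In the 7 ciliated cells Areg was at 125 CPM, and in core cells of DOX plus AMH at 0.

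The 12 lowest genes held 10 others. Muc4, a membrane mucin, was at 23.1 CPM in DOX plus AMH and 61.0 CPM in DOX (-1.40, -1.698 to -1.12), and Padi2, a peptidyl arginine deiminase, at 35.9 CPM in DOX plus AMH and 99.0 CPM in DOX (-1.46). Alox15, a lipoxygenase, was at 19.7 CPM in DOX plus AMH and 52.0 CPM in DOX (-1.40), and Slc40a1, the iron exporter ferroportin, at 130 CPM in DOX plus AMH and 335 CPM in DOX (-1.37). At 10000 UMIs per cell Muc4 was seen in 15.2% of cells of DOX plus AMH and 38.4% of DOX, and Padi2 in 21.0% of DOX plus AMH and 48.7% of DOX. In barcodes with no Epcam UMI Padi2 was seen in 1.346% in DOX plus AMH and 1.58% in DOX. The receptor tyrosine kinase gene Ror2 was at -1.42, the sialyltransferase gene St6gal1 at -1.60, and the long noncoding RNAs Morrbid and Gm33206 at -1.68 and -1.52. Ror2 was lower also in barcodes with no Epcam UMI, at 64.1 CPM in DOX plus AMH and 115.9 CPM in DOX (-0.855). St6gal1 was at 18.7 CPM in columnar cells of DOX plus AMH and 56.6 CPM in those of DOX. In barcodes with no Epcam UMI St6gal1 was at 20.2 CPM in DOX plus AMH and 12.1 CPM in DOX. Nav1 was at -1.79. Nav1 was at 20.9 CPM in columnar cells of DOX plus AMH and 72.2 CPM in those of DOX, no higher than the 88.2 and 80.2 CPM in barcodes of DOX plus AMH and DOX with no Epcam UMI. BC048679, 1 of the 5 gland genes that limited the choice of cells, was at 32.1 CPM in DOX plus AMH and 104 CPM in DOX (-1.69).

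A smaller set of genes was higher in core cells as in all columnar cells. Hpgds, the prostaglandin D2 synthase of haematopoietic type, was at 128 CPM in DOX plus AMH and 27.99 CPM in DOX (2.195, 2.005 to 2.387), and its median cell held 99.9 CPM in DOX plus AMH and 7.26 CPM in DOX. At 10000 UMIs per cell Hpgds was seen in 56.2% of cells of DOX plus AMH (46.2 to 65.9) and 22.5% of DOX (17.7 to 27.95). In barcodes with no Epcam UMI it was seen in 3.10% of DOX plus AMH and 1.52% of DOX. Hpgds was also present in the set-apart cells, at 78.2 CPM in ciliated, 166 CPM in mucous and 167 CPM in Ovgp1-rich cells.

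Tgfbi, a secreted matrix protein induced by TGF-beta, was at 609 CPM in DOX plus AMH and 224 CPM in DOX (1.44, 1.37 to 1.52). The core cells, which held most of it, gave 761 CPM in DOX plus AMH and 224 CPM in DOX, with a median per cell of 636 CPM in DOX plus AMH and 148 CPM in DOX. At 10000 UMIs Tgfbi was seen in 78.1% of all columnar cells of DOX plus AMH (68.97 to 85.6) and 69.7% of DOX (63.9 to 75.2), with intervals that overlapped, and without thinning in 82.6% of DOX plus AMH and 85.5% of DOX. In core cells alone it was seen at 10000 UMIs in 97.6% of DOX plus AMH (91.6 to 99.7) and the same 69.7% of DOX, which had no cells set apart. It was also seen in 36.3% and 29.6% of barcodes of DOX plus AMH and DOX with no Epcam UMI, where its level was 66.2 CPM in DOX plus AMH and 48.9 CPM in DOX. The noncoding RNA 9530059O14Rik was at 199 CPM in DOX plus AMH and 72.1 CPM in DOX (1.47, 1.336 to 1.598), and was at most 1.09 CPM in barcodes with no Epcam UMI. Fmo2, a flavin monooxygenase, was at 91.3 CPM in DOX plus AMH and 32.0 CPM in DOX (1.51, 1.31 to 1.71). Ccnd2, cyclin D2, was at 164 CPM in DOX plus AMH and 71.2 CPM in DOX (1.20, 1.06 to 1.34). Both are also transcribed outside the epithelium, with 65.2 CPM of Fmo2 and 87.3 CPM of Ccnd2 in barcodes of DOX plus AMH with no Epcam UMI. The glutamate receptor gene Gria1 (1.31) and the protocadherin gene Pcdh11x (1.27) were among the 12 highest of core cells.

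Junction genes differed little. Of 23 measured genes of junctions and polarity, 0 were 1.3-fold higher and 0 lower, against 23.6% and 13.2% of all genes. The median log2 ratio of these 23 genes was -0.073. Among them Ctnnd1 (p120 catenin) was at 186 CPM in DOX plus AMH and 240 CPM in DOX (-0.37, -0.47 to -0.26). Of 21 columnar identity genes 3 were higher and 4 lower, with a median of -0.035. Elf3, an epithelial transcription factor, was at 118 CPM in DOX plus AMH and 220 CPM in DOX (-0.89, -1.02 to -0.77), and its relative Ehf at 232 CPM in DOX plus AMH and 150 CPM in DOX (0.63, 0.52 to 0.74). Wnt7a was at 60.6 CPM in DOX plus AMH and 99.7 CPM in DOX (-0.72), and Cldn4, a claudin, at 35.1 CPM in DOX plus AMH and 19.2 CPM in DOX (0.87). Elf3, Wnt7a, Ehf and Cldn4 kept their direction in core cells.

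Ion and water transport genes were mixed, with 10 higher and 8 lower of 26 (median 0.19) and 6 higher and 8 lower of 25 in core cells (median -0.20). Of all genes 23.6% were higher and 13.2% lower over all columnar cells, and 15.3% and 17.9% in core cells. The epithelial calcium channel gene Trpv6 was at 14.4 CPM in DOX plus AMH and 47.3 CPM in DOX (-1.71, -2.09 to -1.36). The anhydrase Car12 was at 68.4 CPM in DOX plus AMH and 167 CPM in DOX (-1.29), and Cftr, the chloride channel of cystic fibrosis, at 55.2 CPM in DOX plus AMH and 90.7 CPM in DOX (-0.72). Scnn1a, the alpha subunit of the epithelial sodium channel, was at 13.04 CPM in DOX plus AMH and 2.86 CPM in DOX (2.19, 1.58 to 2.82) and 1.46 in core cells. The cotransporter Slc12a2 was at 139 CPM in DOX plus AMH and 70.0 CPM in DOX (0.99), and 0.51 in core cells. The small counts of Aqp4, with 20 UMIs in DOX plus AMH and 0 in DOX, all lay in 9 cells of DOX plus AMH.

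Of 15 mucosal defence genes 7 were higher and 5 lower over all columnar cells (median 0.23), and in core cells 2 were higher and 8 lower (median -0.68). Of all genes 23.6% were higher and 13.2% lower over all columnar cells, and 15.3% and 17.9% in core cells. Wfdc2 and Wfdc18 of the mucosal defence list were used to choose the columnar and the mucous cells. Pigr, which carries IgA across the epithelium, was at 41.5 CPM in DOX plus AMH and 30.9 CPM in DOX over all cells (0.42) and gave -1.47 in core cells. Complement factor B, Cfb, gave 0.18 over all cells and -1.19 in core cells. In the 12 mucous cells Pigr was at 506 CPM, Cfb at 422 CPM and C3 at 19.5 CPM, and Lcn2 had 0 UMIs. In the 7 ciliated cells Lcn2 was at 330 CPM and C3 at 137 CPM, and Pigr and Cfb had 0 UMIs. S100a6 was higher in both sets, at 810 CPM in DOX plus AMH and 534 CPM in DOX (0.60), and 0.33 in core cells.

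Genes induced by p53 did not move one way. Of 40 measured targets 9 were higher and 7 lower, with a median of 0.0024, against 23.6% and 13.2% of all genes. In core cells 6 were higher and 14 lower (median -0.13), against 15.3% and 17.9% of all genes. Cdkn1a, the cell-cycle inhibitor p21, was at 42.3 CPM in DOX plus AMH and 47.8 CPM in DOX (-0.18, -0.41 to 0.05). It was at 249 CPM in ciliated and 120 CPM in mucous cells, and core cells gave 16.7 CPM in DOX plus AMH and 47.8 CPM in DOX (-1.51). Strict core cells gave 16.1 CPM in DOX plus AMH and 25.4 CPM in DOX. At 10000 UMIs Cdkn1a was seen in 20% of columnar cells of DOX plus AMH and 23.6% of DOX, and in 30.0% of DOX plus AMH and 39.7% of DOX among the 2972 and 5253 barcodes with no Epcam UMI that were deep enough. Mdm2, which degrades p53, was at 44.5 CPM in DOX plus AMH and 44.0 CPM in DOX (0.02, -0.21 to 0.25). Gdf15, a stress hormone, was at 9.63 CPM in DOX plus AMH and 17.7 CPM in DOX (-0.87, -1.36 to -0.42), and Rrm2b, a p53-induced ribonucleotide reductase subunit, at 38.9 CPM in DOX plus AMH and 25.2 CPM in DOX (0.63).

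Apoptosis genes had 4 higher and 4 lower of 30 (median 0.039), and DNA repair genes 8 higher and 2 lower of 34 (median 0.015), against 23.6% and 13.2% of all genes. The BH3-only death genes Bmf, at 20.9 CPM in DOX plus AMH and 37.5 CPM in DOX (-0.85), and Bcl2l11, at 20.7 CPM in DOX plus AMH and 33.2 CPM in DOX (-0.69), were lower. Bax, the pore-forming effector, was at 57.0 CPM in DOX plus AMH and 79.2 CPM in DOX (-0.48), a level under 0.5 times that of barcodes with no Epcam UMI. H2afx, the histone that is phosphorylated at DNA breaks, was at 41.1 CPM in DOX plus AMH and 25.2 CPM in DOX (0.71, 0.45 to 0.96).

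Type I interferon response genes were mostly lower in DOX plus AMH, with 2 higher and 18 lower of 29, against 23.6% and 13.2% of all genes. The interferon median was -0.61. In barcodes with no Epcam UMI 0 were higher and 28 lower of 30 (median -1.15), where 33.2% of 20225 genes were higher and 6.62% lower. Of the 29 genes 20 had less than 0.5 times the level of those barcodes, and the stromal marker sum was 384 CPM in DOX plus AMH and 1496 CPM in DOX. The part of that RNA in the result was not tested. The strict core cells, with stromal sums of 118 CPM in DOX plus AMH and 197 CPM in DOX, gave a median of -0.48. The largest difference was in Ifi27l2a, at 16.05 CPM in DOX plus AMH and 94.5 CPM in DOX (-2.56), and -1.295 in strict core cells, with 348 and 1003 CPM in barcodes of DOX plus AMH and DOX with no Epcam UMI. Among the other 9 genes, Oasl2 was at 18.9 CPM in DOX plus AMH and 42.8 CPM in DOX (-1.18, -1.51 to -0.86). Oas2 was at 2.41 CPM in DOX plus AMH and 7.55 CPM in DOX (-1.65), and Parp14 at 24.9 CPM in DOX plus AMH and 32.2 CPM in DOX (-0.37). At 10000 UMIs Oasl2 was seen in 13.3% of columnar cells of DOX plus AMH and 29.5% of DOX, and in 22.8% and 34.1% of barcodes of DOX plus AMH and DOX with no Epcam UMI, above the columnar shares in both. MHC class I genes had a median of -0.024, with 4 higher and 1 lower of 22. NF-kB and chemokine genes had 4 higher and 9 lower of 21 (median -0.16), against the same 23.6% and 13.2% of all genes.

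Immediate-early genes were higher in DOX plus AMH, with 20 higher and 5 lower of 29 and a median of 0.52, against 23.6% and 13.2% of all genes and a median gene at 0.05. Core cells gave 0.60. Barcodes with no Epcam UMI gave 0.58, with 20 higher and 1 lower of 30, where 33.2% and 6.62% of all genes were higher and lower and the median gene was at 0.22. Fos was at 749 CPM in DOX plus AMH and 331 CPM in DOX (1.18, 1.11 to 1.24). Its cells were spread widely, with medians of 110 CPM in DOX plus AMH and 71.6 CPM in DOX and highest cells of 8463 CPM in DOX plus AMH and 4281 CPM in DOX. At 10000 UMIs Fos was seen in 61.0% of columnar cells of DOX plus AMH and 53.5% of DOX, and in 50.2% and 34.4% of barcodes of DOX plus AMH and DOX with no Epcam UMI. Jun was at 662 CPM in DOX plus AMH and 380 CPM in DOX (0.80) and Egr1 at 215 CPM in DOX plus AMH and 102 CPM in DOX (1.08). Klf4, an epithelial transcription factor, ran the other way at 270 CPM in DOX plus AMH and 397 CPM in DOX (-0.56, -0.64 to -0.47). These genes are also induced by enzymatic dissociation, whose part was not tested.

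Glucocorticoid response genes had 12 higher and 3 lower of 22 and a median of 0.43, against 23.6% and 13.2% of all genes. In barcodes with no Epcam UMI their median was 0.60 and that of all genes 0.22. The metallothionein gene Mt1, which metals and glucocorticoids induce, was at 1366 CPM in DOX plus AMH and 692 CPM in DOX (0.98, 0.93 to 1.03), and its median cell held 1151 CPM in DOX plus AMH and 654 CPM in DOX. Mt2 was at 380 CPM in DOX plus AMH and 224 CPM in DOX (0.76). Tsc22d3, which encodes the glucocorticoid-induced leucine zipper, was at 56.0 CPM in DOX plus AMH and 41.5 CPM in DOX (0.43). Lcn2, also on this list, was among the lower genes. Heat shock genes had 5 higher and 0 lower of 20 (median 0.050) and NRF2 targets 8 higher and 6 lower of 28 (median 0.021). Of the 19 integrated stress response genes 5 were higher and 2 lower (median 0.19). Nupr1, a stress-induced chromatin protein, turned with the mucous cells, where it was at 1139 CPM. Its log2 ratio was 2.64 over all cells and -1.82 in core cells.

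The receptor of AMH was at the limit of detection. Amhr2 had 3 UMIs in the columnar cells of DOX plus AMH and 2 in those of DOX, with a ratio interval of -1.21 to 5.50, and its level was 3.09 CPM in DOX plus AMH and 1.85 CPM in DOX in barcodes with no Epcam UMI. AMH and BMP signalling genes had 3 higher and 4 lower of 25, with a median of -0.058, against 23.6% and 13.2% of all genes. The type I receptors Bmpr1a, at 110 CPM in DOX plus AMH and 115 CPM in DOX (-0.07), and Acvr1, at 29.7 CPM in DOX plus AMH and 41.5 CPM in DOX (-0.48), were both present. Among targets, Id1 was at 173 CPM in DOX plus AMH and 181 CPM in DOX (-0.07, -0.19 to 0.04), Id2 at 286 CPM in DOX plus AMH and 233 CPM in DOX (0.30) and the inhibitor Smad7 at 36.9 CPM in DOX plus AMH and 56.1 CPM in DOX (-0.60). Msx1, a BMP-responsive homeobox gene of the uterine epithelium, was at 527 CPM in DOX plus AMH and 423 CPM in DOX (0.32), and 0.64 in core cells.

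**Figure D5:**
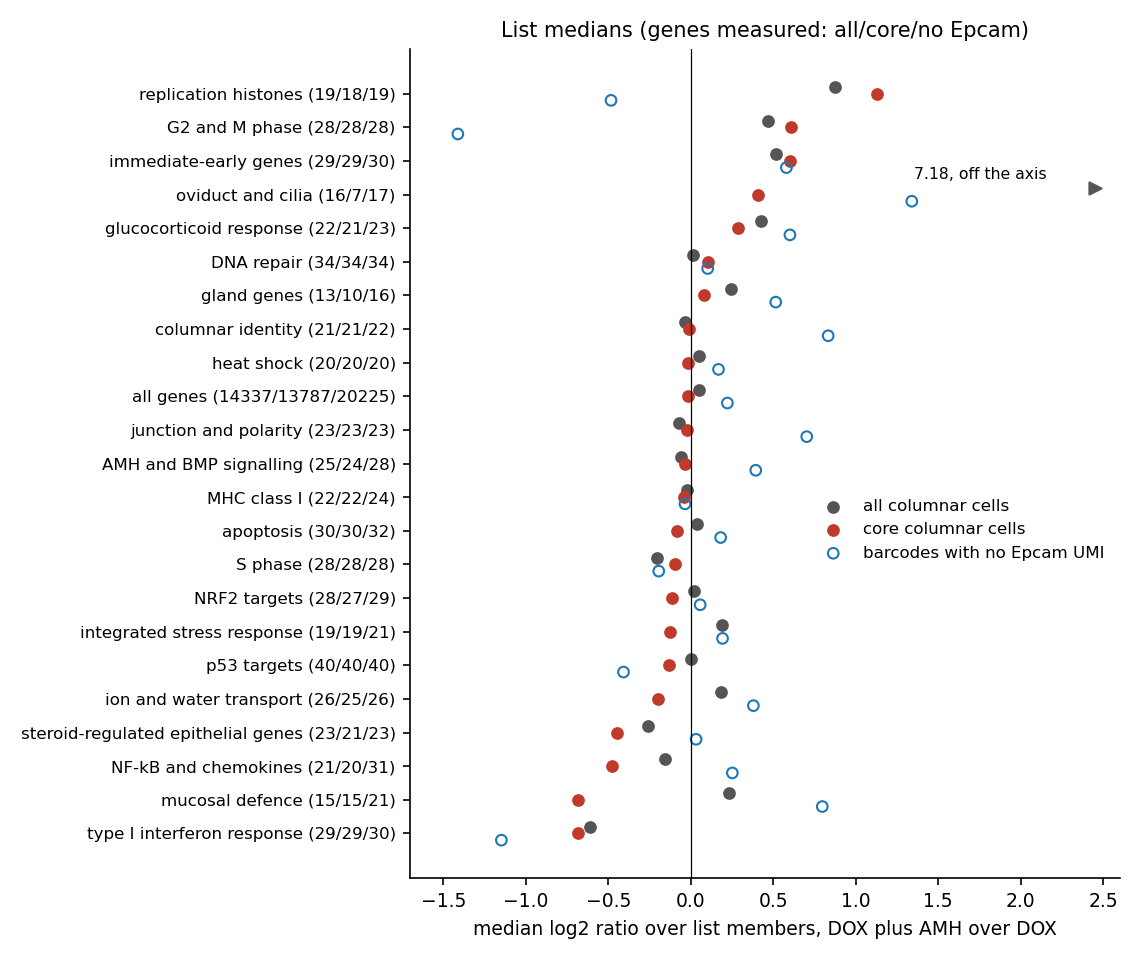
Median log2 ratio, DOX plus AMH over DOX, of each gene list and of all genes in all columnar cells (grey), core columnar cells (red) and barcodes with no Epcam UMI (open blue), with the number of genes measured in each beside the name. The G2 and M phase and replication histone lists lie above 0 in columnar cells and below 0 in barcodes with no Epcam UMI; an arrow marks the oviduct and cilia list at 7.18, off the axis.

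Proliferation genes were concentrated in few cells of DOX plus AMH. Columnar cells with at least 2 UMIs of Mki67 and Top2a together were 21 of 115 in DOX plus AMH (18.3%, 11.7 to 26.5) and 73 of 283 in DOX (25.8%, 20.8 to 31.3). Their depth was high, with medians of 80909 UMIs in DOX plus AMH and 75410 in DOX, against 24688.5 and 23766 in the other cells of DOX plus AMH and DOX. With every cell thinned to 2000 UMIs, Mki67 or Top2a was seen in 8.70% of columnar cells of DOX plus AMH (4.25 to 15.4) and 12.4% of DOX (8.80 to 16.8). Without thinning the shares were 29.6% in DOX plus AMH and 45.2% in DOX. In smooth muscle barcodes thinned alike the shares were 0.970% in DOX plus AMH and 4.62% in DOX. The columnar intervals overlapped at 2000 UMIs and did not overlap without thinning (21.4 to 38.8 in DOX plus AMH and 39.3 to 51.2 in DOX). At 10000 UMIs the shares were 15.2% in DOX plus AMH (8.97 to 23.6) and 26.9% in DOX (21.7 to 32.6), and in strict core cells 25.97% in DOX plus AMH and 25.1% in DOX. No order is read from these shares.

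The 28 genes of the G2 and M phase list had a median log2 ratio of 0.46, with 16 higher and 1 lower, against 23.6% and 13.2% of all genes. In barcodes with no Epcam UMI 28 of 28 were lower (median -1.41), where 33.2% of all genes were higher and 6.62% lower. Top2a, the topoisomerase II that doxorubicin poisons, was at 115 CPM in DOX plus AMH and 71.8 CPM in DOX (0.68, 0.53 to 0.83). The richest 10% of cells held 93.2% of the list's UMIs in DOX plus AMH (12 cells) and 75.3% in DOX (28 cells). In cells with at least 10 UMIs of Mki67 and Top2a, 10 cells of DOX plus AMH and 38 of DOX, the list summed to a median of 5368 CPM in DOX plus AMH and 1962 CPM in DOX. Mki67 and Top2a are on the list and chose these few cells, so the sums are a description and the libraries are not compared by them. With every cell weighted alike the list's median was 0.0030.

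Replication histone genes had 17 higher and 0 lower of 19, against 23.6% and 13.2% of all genes. The histone median was 0.87, and -0.48 in barcodes with no Epcam UMI. Hist1h2ap was at 220 CPM in DOX plus AMH and 76.0 CPM in DOX (1.54, 1.41 to 1.66), with 90.7% of its UMIs in 10 cells of DOX plus AMH, and Hist1h1b at 114 CPM in DOX plus AMH and 38.1 CPM in DOX (1.58). Near-identical copies of histone genes may share UMIs. Without dividing cells Hist1h1b gave -3.03 (-8.43 to -0.33), from only 1 UMI in DOX plus AMH and 15 in DOX. S phase genes, among them the replicative helicase subunits Mcm5 (8.02 CPM in DOX plus AMH and 13.4 CPM in DOX, -0.74) and Mcm7 (25.5 CPM in DOX plus AMH and 34.03 CPM in DOX, -0.42), had 0 higher and 10 lower of 28 and a median of -0.20.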

How the data were processed

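Single-cell 3' RNA libraries of pooled uteri were made from 1 DOX plus AMH group and 1 DOX group. The authors deposited raw UMI counts per gene and barcode, made with Cell Ranger 7.0.0 on mm10, per the submitters' processing notes; the annotation version is not given in the sources used here. Deposited barcodes had at least 500 UMIs, so they had been filtered. The libraries held 97887259 UMIs over 8083 barcodes (DOX plus AMH) and 129530270 over 9258 (DOX). The cell filter asked for 1000 UMIs and 500 genes or more, and no more than 15% of UMIs from mitochondrial genes. Columnar cells, subsets and gene lists were chosen with earlier results of these data known.

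UMI counts were summed per library over the chosen cells and scaled to CPM over all genes. Log2 ratios have exact 95% intervals from the binomial split of the UMIs, and shares exact Clopper-Pearson intervals. With 1 library per group no test was made. A gene at 0 was set at a floor of 3 UMIs per library. A list's median covers members with at least 20 UMIs, and members were counted at 1.3-fold. Doublets were called with Scrublet in scanpy 1.11.5 (expected share 8%, genes in at least 3 cells), and were kept except where stated. They were 4.63% of kept barcodes in DOX plus AMH and 5.65% in DOX. TMM factors came from edgeR 4.0.16. Calculations used Python 3.11.15, numpy 2.4.6 and scipy 1.17.1, and the ratio and interval code was tested on simulated data.

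Named genes were the 5 markers, the 15 most enriched over other barcodes, the 12 highest and 12 lowest ratios at 50 UMIs and 50 CPM and at least 0.5 times the level of barcodes with no Epcam UMI (repeated in core and strict core cells), and up to 4 members per list, of which 1 is not reported here. Ribosomal, mitochondrial, haemoglobin and sex-linked genes were left out. Other genes, among them C3 and the genes of the subsets, were chosen after their values were seen. Mx2, Pals1 and Tp53bp1 of the lists had no row under those names.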

Additional observations from a re-analysis of the deposited data

Results flagged for a closer look

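In summed UMIs the G2 and M phase list ran in opposite directions in columnar cells and in barcodes with no Epcam UMI. Its median log2 ratio, DOX plus AMH over DOX, was 0.46 in columnar cells and -1.41 in those barcodes. There 28 of 28 genes were lower, against 6.62% of all genes. The columnar median was 0.0030 with every cell weighted alike and 0.072 at 2000 UMIs per cell. It was -2.35 without dividing cells, where 3 genes were left, and 0.61 in core and 0.81 in strict core cells. The difference between these cells was not tested. The richest 10% of columnar cells held 93.2% of the list's UMIs in DOX plus AMH and 75.3% in DOX, and the share of cells with Mki67 or Top2a at a fixed depth was 8.70% in DOX plus AMH and 12.4% in DOX.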

How the results depend on the processing

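No paired analysis was possible because each group was 1 library and the labels give no replicate numbers; for the same reason no library could be left out. Core, strict core, the total without squamous barcodes and 10000 UMIs per cell were alternatives chosen after seeing the data. Across all settings 345 values that answer a comparison stayed on the same side and close in size, 40 moved and 3 changed sign; for single named genes these numbers were 1453, 420 and 54. Where a cause is not plain from fewer cells or genes, the cause was not tested. The share of columnar cells was 2.02% in DOX plus AMH and 4.48% in DOX with Epcam and Wfdc2 at 1 UMI, 1.27% in core cells of DOX plus AMH, 1.17% and 2.90% in strict core cells of DOX plus AMH and DOX, and 2.89% in DOX with a stricter cell filter. It was lower in DOX plus AMH under every setting run.

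The number of genes that could be counted as 2-fold higher or lower differed between settings. It was 3607 in the main setting and 14337 with no CPM minimum, so the sizes of the counts are not compared across settings. Counts of genes 2-fold higher and lower, in that order, were 134 and 80 over nuclear genes without ribosomal protein genes, 245 and 156 at 2000 UMIs per cell, 127 and 81 without dividing cells, and 1188 and 620 with no CPM minimum. They were 29 and 60 in core cells and 36 and 37 in strict core cells, so that lower genes were 40.5% of both in all cells, 67.4% in core and 50.7% in strict core cells. With Epcam and Wfdc2 at 1 UMI the counts were 108 and 45, with lower genes 29.4% of both.

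Among list medians, those of oviduct and cilia were -0.38 in cells with no UMI of Foxj1, Ovgp1, Krt5 or Krt14, 3.03 at 2000 UMIs, 0.41 in core and 0.17 in strict core cells. Except at 2000 UMIs, genes of this same list chose which cells were left out. The medians of S phase were 0.26 at 2000 UMIs, -0.080 with every cell weighted alike, -0.14 without dividing cells, -0.70 without UMIs of those 4 genes and -0.097 in core cells. Those of G2 and M phase were -2.35 without dividing cells, where 3 genes were left, 0.0030 with every cell weighted alike, 0.072 at 2000 UMIs, 0.81 without UMIs of the 4 genes and 0.81 in strict core cells. Replication histones gave 0.40 without dividing cells. Mucosal defence gave 0.64 at 2000 UMIs and -1.43 in strict core cells. At 2000 UMIs MHC class I gave 0.35 and AMH and BMP signalling 0.21. Without UMIs of the 4 genes p53 targets gave -0.11, DNA repair -0.17 and MHC class I 0.16. In core cells p53 targets gave -0.13, and with every cell weighted alike junction and polarity gave 0.067. The share of cells with Mki67 or Top2a was 29.6% in DOX plus AMH and 45.2% in DOX unthinned, and 15.2% in DOX plus AMH and 26.9% in DOX at 10000 UMIs.

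Single genes changed sign as follows, in log2 ratios. The counting interval of the changed value spanned 0 for 9 of 12 genes in core cells, 11 of 14 in strict core cells, 3 of 4 without dividing cells, and every gene under the other settings that have an interval. In core cells these were Wfdc10 0.054, Tmem212 -1.50, Ltf -1.91, Aqp8 -0.27, Foxa2 -0.50, Ak1 -0.35, Bok -0.65, H2-T23 -0.33, Hsph1 -0.34, Cbr3 -0.61, Nupr1 -1.82 and Asns -0.13. In strict core cells they were Epcam -0.097, Tmem212 -1.43, Ltf -1.98, Perp -0.011, Jup -0.010, Aqp8 -0.36, Foxa2 -1.80, H2-T23 -0.27, Vcam1 0.15, Angptl4 0.37, Bmp2 1.79, Hsph1 -0.33, Cbr3 -0.38 and Nupr1 -2.23. In cells with no UMI of Foxj1, Ovgp1, Krt5 or Krt14 they were Wfdc10 0.18, Jup -0.11, Aqp8 -0.20, Ak1 -1.52, Bok -0.34, Lig4 -0.34, Rsad2 0.62, Ccl2 0.18 and Hsph1 -0.11. Without dividing cells they were Hist1h1b -3.03, Nusap1 -1.298, Prc1 -0.94 and Ect2 -0.45. At 2000 UMIs per cell, where counts are few, they were Nusap1 -0.41, Prc1 -0.12, Mki67 -1.14, Top2a -0.069, Perp -0.028, Eda2r 0.29, Cxcl10 0.88, Vcam1 1.29, Hsph1 -0.51, Chaf1b 0.88, Mcm7 0.014 and Ect2 -0.19. With Epcam and Wfdc2 at 1 UMI they were Lyz2 0.046 and Vcam1 0.70, and with every cell weighted alike Ccna2 -0.045. Eda2r, Cxcl10 and Chaf1b at 2000 UMIs, Rsad2 and Ccl2 without UMIs of the 4 genes, and Vcam1 in strict core cells had 0 UMIs in DOX plus AMH, so that their values are upper bounds at the floor and show no change of direction.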

Other observations

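Homeobox and duct genes of the reproductive tract are given here as values. Hoxa10, a homeobox gene of the uterus, was at 4.6 CPM in core cells of DOX plus AMH and 16.7 CPM in those of DOX. In strict core cells, with stromal genes under 0.1% of UMIs, it was at 3.2 CPM in DOX plus AMH and 4.1 CPM in DOX. Hoxa11 was at 1.0 CPM in DOX plus AMH and 5.0 CPM in DOX in core cells, and at 0.79 CPM in DOX plus AMH and 0.71 CPM in DOX in strict core cells. Pax2, a Müllerian duct transcription factor, was at 185 CPM in DOX plus AMH and 174 CPM in DOX over all columnar cells, at 172 CPM in the mucous and 204 CPM in the Ovgp1-rich cells, and at 0 in the ciliated cells.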
